A study of Mus musculus with 12 samples.

Results

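The constructs described here carried guide RNAs against Cd247, Cd3e and Lat in any mixture, and none against Zap70. They were found by reading the target names of each construct, dropping the non-targeting fillers and keeping those whose remaining targets lay within these 3 genes. This gave 42 of the 689 constructs analysed, in 7 combinations of 1 to 3 genes with 6 constructs each.

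The series is a pooled CRISPR screen in CD8+ T cells of C57BL/6 mice. Lentiviral constructs with 4 guides in tandem were introduced 24 h after stimulation, and 48 h later the cells were transferred into mice that had been given tumour cells 12 days before. The tumour samples (TIL) were CD8+mKate2+ tumour-infiltrating lymphocytes, mKate2 being the fluorescent marker of transduction, sorted from the tumours on day 7 after transfer (20000 to 40000 cells a tumour, 3 to 4 mice pooled per replicate, then mixed with 50 Raji carrier cells, a human B cell line, per T cell). The starting reference (SR) was 2000000 to 3000000 of the same transduced cells frozen at the time of transfer. Both groups carry the library, which 5 to 10% of the transferred cells had taken up, so the controls inside each group are the 84 non-targeting constructs. The labels do not say where Cas9 came from, and no measurement of protein loss was used here.

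Each group has 3 replicates, read over 2 regions of the construct (region 1 holds guides 1 and 2, region 2 guides 2 and 3), which makes 12 libraries. The regions read the same DNA and were averaged. Values are in CPM, scaled reads per 1000000 of a library's total. Detection in a TIL replicate means over 1000 scaled reads in each of the regions, and this limit was set with knowledge of the data. Library totals ran from 8288404 to 23012713 scaled reads in TIL and from 9963617 to 25646820 in SR. Low TIL values lay on steps of 1.36 to 2.75 scaled reads, so values of a few scaled reads stand for a few reads at most. TIL was amplified by PCR in 2 steps and SR directly, and whether the replicates came from separate cultures is not stated, so p-values measure only the spread between these samples.

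All 3 genes belong to the machinery by which a T cell senses antigen. Cd3e encodes CD3 epsilon and Cd247 encodes CD3 zeta, signalling chains that assemble with the T cell receptor (TCR) and that the receptor needs to reach the cell surface. Their cytoplasmic tails carry motifs that are phosphorylated after antigen contact and recruit the kinase ZAP-70, the product of Zap70. ZAP-70 in turn phosphorylates LAT, the membrane adaptor encoded by Lat, on which the complexes leading to calcium, Ras and NF-kappa B signalling gather.

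The following spacers belong to the 5 constructs that were detected in 2 TIL replicates, the most that any of the 42 reached. They are shown because the results turn on these constructs. Constructs of a combination are numbered by starting abundance, no. 1 being the most abundant in SR.
Cd247, in Cd247+Cd3e+Lat no. 5: gctcgggatccagagatggg
Cd3e, in Cd247+Cd3e+Lat no. 5: agggcacgtcaactctacac
Lat, in Cd247+Cd3e+Lat no. 5: gccttgagcccggtggggct
Cd247, in Cd247+Cd3e+Lat no. 4: gaaccgcacgtggaggatgc
Cd3e, in Cd247+Cd3e+Lat no. 4 and Cd247+Cd3e no. 1: gtgacccgaggaaccggtgc
Lat, in Cd247+Cd3e+Lat no. 4 and Lat no. 1: ttgggggatactcacgggat
Cd247, in Cd247+Cd3e no. 1: aagaggcttcttatgtcggc
Cd3e, in Cd3e no. 1: ccgagttacctcgagctttc
The other spacers carried by constructs detected in 1 TIL replicate were these, besides those printed above or in the groups that follow.
Lat, in Cd247+Cd3e+Lat no. 1: ctcgtagcttgccacactgt
Cd3e, in Cd247+Cd3e+Lat no. 1: tgataagcacctggtgctcc
Lat, in Cd247+Cd3e+Lat no. 3: actgtcaggcagcaccactc
Cd3e, in Cd3e+Lat no. 2: ttctcggaagtcgaggacag
Cd3e, in Cd3e+Lat no. 3: tcagaagcatgataagcacc
Lat, in Lat no. 4: tcgggggacggttatttctg

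Spacers were reused, so the 42 constructs are not independent of each other. The library held 10 spacers per gene, of which 8 for Cd247, 9 for Cd3e and 10 for Lat occurred in the 42 constructs, each in up to 4 of them. Several also target the same stretch of a gene, and in the groups below capitals mark the bases that every spacer of the group shares on the same or the opposite strand.
Cd247 stretch, in Cd247 no. 2: atcctCCACGTGCGGTTCcc
Cd247 stretch, in Cd247+Cd3e+Lat no. 3: ctcctggGAACCGCACGTGG
Cd247 stretch, in Cd247+Cd3e+Lat no. 4: GAACCGCACGTGGaggatgc
Lat stretch, in Cd3e+Lat no. 1 (not detected): aCTCACGGCAGCGCACgcac
Lat stretch, in other constructs not detected: CTCACGGCAGCGCACgcaca
Lat stretch, in Cd3e+Lat no. 2 and no. 3 and Lat no. 2: GTGCGCTGCCGTGAGttgcc
The 3 Cd247 spacers share 13 bases and sat in 11 of the 24 constructs that target Cd247. The 3 Lat spacers share 15 bases and sat in 9 of the 24 that target Lat.

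In the transferred cells the 42 constructs started at mean SR levels between 47.5 and 9285 CPM, with a median of 1187 CPM against 1136 CPM over the whole library and 806 CPM over the non-targeting constructs. Cd247+Cd3e no. 6 was the scarcest and Cd247+Cd3e+Lat no. 1 the most abundant, ranked 2 of 689. All 42 together made up 5.35, 11.8 and 4.14% of TIL replicates 1, 2 and 3, against 7.35, 7.59 and 7.42% of the SR libraries set beside them. The TIL share thus lay above the SR share in replicate 2 and below it in replicates 1 and 3, and it varied far more between TIL replicates than between SR replicates.

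Most of these constructs were not seen in the tumours. Detection occurred in 17 of 126 cases (a case is 1 construct in 1 replicate), or 13.5% (Wilson 95% interval 8.60 to 20.5%, counting error only), where 11.4% of all cases in the library were detected. By replicate 4, 6 and 7 of the 42 were detected, against 11.3, 8.85 and 14.1% of all constructs in TIL 1, 2 and 3. Altogether 12 constructs (28.6%) were detected at least once, where 26.3% of the library was, 5 in 2 replicates and none in all 3, where 49 of the 689 were detected in 2 or more replicates and 6 in all 3. These shares lay near those of the whole library, and a threshold of 100 or 10000 scaled reads gave the same 13.5%. TIL 1 and TIL 2 had 2 of these constructs in common, TIL 1 and TIL 3 1, and TIL 2 and TIL 3 2, against 29, 18 and 14 over the library. In 5 further cases (3.97%, against 3.19% over the library) a construct exceeded 1000 scaled reads in 1 region alone. Non-targeting constructs were detected in 16 of 252 cases (6.35%, 3.95 to 10.1%) and constructs that also target Zap70 in 9 of 141 cases (6.38%, 3.39 to 11.7%). These intervals treat each case as independent, although constructs share spacers and the same 3 TIL replicates, and no test between the sets was made.

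Set against SR, 29 of the 42 constructs fell (69.0%) and none rose, where 67.8% of the library fell and 0.435% rose (limma, Benjamini-Hochberg adjusted p under 0.05 over 689 constructs). A fall here is a fall in the share of a library: where a few constructs take up a large part of a TIL library, the shares of all others drop, whether or not their cells did. The fallen constructs were exactly the 29 that never exceeded 1000 scaled reads in any TIL library. Their TIL levels did not pass 4.76 CPM, 4 of them were listed at 0 in all 6 TIL libraries, and their changes lay between -11.82 and -5.54 on the log2(CPM + 1) scale, where a construct that disappears can fall no further than its starting level allows. The median change of the 42 was -8.67, against -8.50 for all constructs and -9.00 for the non-targeting ones. The 3 lowest were Cd247+Cd3e+Lat no. 2 (-11.82 ± 0.25, SE, n = 3; limma adjusted p = 4.24e-07), Cd247 no. 1 (-11.64 ± 0.23; 3.34e-07) and Lat no. 2 (-11.27 ± 0.18; 1.85e-07). Each of them was abundant in SR (ranks 6, 17 and 68) and stayed at or below 1.25 CPM in every TIL replicate. The other 13 did not pass (limma adjusted p between 0.119 and 0.773): 12 of them were detected in 1 or 2 replicates, with standard errors between 0.60 and 4.38, and 11 of the 13 had a mean change below 0.

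The count of 0 rises came from the same fit, in which 29 had an unadjusted p under 0.05, all of them falls. It depended on TIL 3: without replicate 3, 4 of the 42 constructs rose, where 28 of 689 did in the library. They were Cd247+Cd3e+Lat no. 5 (6.12 on the log2 scale, limma adjusted p = 0.000106), Cd247 no. 2 (1.98; 0.00893), Cd247+Cd3e no. 1 (1.31; 0.00367) and Lat no. 1 (1.04; 0.0237), named after this fit had been seen. In TIL 3, the replicate left out, they stood at 0, 0.0660, 2970 and 0.154 CPM, each below SR. In TIL 2, Cd247 no. 2 had 2 scaled reads in region 1 and 188965 in region 2, and Cd247+Cd3e no. 1 had 494192 and 0.

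Joint disruption of Cd247, Cd3e and Lat gave the highest value among the 7 combinations. Its 6 constructs were detected in 6 of 18 cases (33.3%, Wilson 16.3 to 56.3%), with 1, 2 and 3 of them in TIL 1, 2 and 3, and 4 different constructs contributed. Their starting levels had a median of 1696 CPM, against 1136 CPM over the whole library, and the part of this in the result was not tested. Relative to the non-targeting constructs, the combination's mean log2 change was 2.73 ± 0.80 (SE, n = 3), with 1.15, 3.26 and 3.79 in the 3 replicates. It ranked 6 of 101 combinations and did not pass (limma adjusted p = 0.153, unadjusted 0.00973), where 0.990% of the combinations were called higher and 0.00% lower. With medians of constructs in place of means the value was 1.38 (limma adjusted p = 0.528), and with the 20% of the library scarcest in SR left out 1.60 (0.66). It passed in 1 of the 13 alternative settings with a test, on the authors' deposited log2 ratios (2.97, limma adjusted p = 0.0261), where 6 of 101 combinations were called higher.

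Within that combination, Cd247+Cd3e+Lat no. 5 had the highest TIL over SR ratio of the whole library in replicates 1 and 2. It stood at 21742, 18409 and 0 CPM in TIL 1, 2 and 3, against 282, 291 and 252 CPM in SR. TIL over SR was thus 77.0 and 63.3 in replicates 1 and 2, although the construct ranked only 604 of 689 in starting abundance, while both regions of TIL 3 listed it at 0. In the authors' deposited table its mean log2 ratios were 6.06, 5.93 and -8.61. Over the 3 replicates its change was 1.42 ± 4.38 (SE; limma adjusted p = 0.773), so the spread between replicates was larger than the mean change. Without this construct the combination stood at 1.32 above the non-targeting constructs, a value chosen after the data had been seen and not tested.

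The other detected constructs of this combination appeared in different TIL replicates. Cd247+Cd3e+Lat no. 4 had 0.348, 18179 and 5148 CPM in TIL 1, 2 and 3, against 1571, 1609 and 1636 CPM in SR. It was nearly absent in TIL 1 and above its starting level in TIL 2 and TIL 3, by 11.3-fold and 3.15-fold, and its change over the 3 replicates was -1.68 ± 3.96 (SE; limma adjusted p = 0.708). Cd247+Cd3e+Lat no. 1 had 1.45, 0.733 and 9070.1 CPM in TIL, against 8325, 9950.0 and 9580.0 CPM in SR, so it came near its starting level in TIL 3 alone. Cd247+Cd3e+Lat no. 3 had 0.221, 0.161 and 2702 CPM in TIL, against 1835, 1793 and 1729.9 CPM in SR. It likewise appeared in TIL 3 alone, at 1.56 times its starting level.

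Disruption of Cd247 and Cd3e together, the CD3 zeta and epsilon chains, rested on 1 construct. Cd247+Cd3e no. 1 had 11656, 10737 and 2970.1 CPM in TIL, against 4490.4, 4515 and 5114 CPM in SR. It was the only one of the 42 whose averaged regions stayed above 1000 CPM in every TIL replicate, higher than SR in replicates 1 and 2 and lower in replicate 3. The change was 0.61 ± 0.60 against SR (SE, n = 3; limma adjusted p = 0.386) and 9.01 ± 0.89 relative to the non-targeting constructs, which passed (limma adjusted p = 0.0131). That call was lost with region 2 alone, with the replicate number as a block, on the authors' deposited log2 ratios, and without replicate 1 or replicate 2. Its regions disagreed, however, with 478750, 494192 and 54893 scaled reads in region 1 of TIL 1, 2 and 3 and 15153, 0 and 29213 in region 2. With region 2 alone its change against SR was -5.09, and on the authors' deposited ratios -2.14. The other 5 constructs of the combination fell. Starting levels of the 6 constructs had a median of 1382 CPM, against 806 CPM over the non-targeting constructs. The combination lay 0.82 ± 0.59 above the non-targeting constructs (limma adjusted p = 0.536). It stood at -0.82 without construct no. 1, which was picked because leaving it out gave the lowest value. With medians in place of means it stood at -0.75 and was called lower (limma adjusted p = 0.00133), as 37 of the 101 combinations then were.

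Cd247+Lat was the only combination of the 7 with no detected construct. Its 6 constructs gave 0 of 18 cases, and all 6 fell. A count of 0 allows a share of up to 16.7% if 3 cases are taken as its limit, and up to 17.6% by the Wilson interval used elsewhere, both for counting error only. TIL levels ran from 0 to 0.330 CPM, against 129 to 1987 CPM in SR. Relative to the non-targeting constructs the combination changed by -0.92 ± 0.52 (SE, n = 3; limma adjusted p = 0.440), below 0 in each replicate at -1.02, -0.27 and -1.48. By means it was the only one of the 7 below 0, which the test does not separate from 0. By medians it stood at -0.016, and Cd247+Cd3e, Cd3e, Cd3e+Lat and Lat lay lower. Its starting levels, with a median of 876 CPM, were also lower than those of Cd247+Cd3e+Lat at 1696 CPM, and the part of this in the result was not tested.

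The remaining pair, Cd3e with Lat, lay 1.40 ± 0.73 above the non-targeting constructs (SE, n = 3; limma adjusted p = 0.362), with 0.30, 2.88 and 1.03 by replicate. Its constructs started at a median of 1009 CPM in SR, against 806 CPM over the non-targeting constructs. The combination turned to -0.43 with medians in place of means and was then called lower (limma adjusted p = 0.0166), as 37 of the 101 combinations were. The value was 0.19 with region 2 alone, 0.71 on the authors' deposited log2 ratios and 0.66 without replicate 2. Cd3e+Lat no. 2 had 0.372, 12782 and 826 CPM in TIL, against 2723, 3300.1 and 2816 CPM in SR, and was detected in TIL 2. Cd3e+Lat no. 3 had 0.0696, 0 and 3089.8 CPM in TIL, against 1269, 1159 and 1213 CPM in SR, and was detected in TIL 3. No construct of this pair was detected in TIL 1. Cd3e+Lat no. 1 was high in region 1 alone, with 129047 and 181981 scaled reads in TIL 1 and TIL 2, where region 2 held 11 and 3. It was therefore not counted as detected, and it is the only construct of the 42 that neither fell nor was detected.

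Among single-gene disruptions, Lat constructs were seen most often, in 4 of 18 cases (22.2%, Wilson 9.00 to 45.2%). They also started highest, at a median of 1770 CPM in SR, against 1061 CPM for Cd3e and 639 CPM for Cd247. The part of this in the result was not tested. Lat no. 1 had 8029.6, 9421 and 0.154 CPM in TIL, against 3714, 4807 and 4436 CPM in SR, about 2.16 and 1.96 times its starting level in replicates 1 and 2. Lat no. 3 had 0.174, 16941 and 0 CPM in TIL, against 1933, 2160.1 and 2102 CPM in SR. It was abundant in TIL 2 alone. Lat no. 4 had 0.372, 0.0869 and 14533 CPM in TIL, against 1470.4, 1578 and 1377 CPM in SR. It was abundant in TIL 3 alone, at 10.6 times its starting level. The 6 Lat constructs together lay 0.75 ± 0.88 above the non-targeting constructs (SE, n = 3; limma adjusted p = 0.745), with 0.28, 2.68 and -0.70 by replicate. With medians in place of means they stood at -1.01, which was called lower (limma adjusted p = 0.00133), as 37 of the 101 combinations then were. The median SR level of the Lat constructs, 1770 CPM, lay above the 806 CPM of the non-targeting constructs. The part of this in the called value was not tested.

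Cd3e and Cd247 alone each rested on 1 construct. Cd3e no. 1 had 0.325, 22107 and 3072 CPM in TIL, against 2924, 3201 and 3129 CPM in SR, which put it 6.91-fold above its starting level in TIL 2 and close to it in TIL 3. The other 5 Cd3e constructs fell, and the combination lay 0.44 ± 0.74 above the non-targeting constructs (limma adjusted p = 0.774). With medians in place of means it stood at -0.42 and was called lower (limma adjusted p = 0.00708), as 37 of the 101 combinations then were. The Cd3e constructs started at a median of 1061 CPM in SR, against 806 CPM over the non-targeting constructs. Cd247 no. 2 had 9082, 5872 and 0.0660 CPM in TIL, against 1930.2, 1782 and 1784 CPM in SR. In TIL 2 its reads came from region 2 alone, with 2 scaled reads in region 1 and 188965 in region 2, so it counted as detected in TIL 1 alone. The other 5 Cd247 constructs fell, and the combination lay 0.58 ± 0.94 above the non-targeting constructs (limma adjusted p = 0.769). Without Cd247 no. 2, Cd3e no. 1 and Lat no. 1 each single-gene value was below 0, at -0.54 for Cd247, -0.59 for Cd3e and -0.12 for Lat. These constructs were picked because leaving them out gave the lowest values, so a drop was fixed in advance. Without replicate 2 Cd3e stood at -0.32 and Lat at -0.21. Cd247 ranged between 0.039 and 1.59 with 1 replicate left out, lowest without replicate 2 and highest without replicate 3, and was 0.097 without replicate 1.

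Relative to the non-targeting constructs, 9 of the 42 were called lower and 2 higher (limma, adjusted p under 0.05 over 689 constructs), where 21.0% of the library was lower and 4.64% higher. All 9 lower constructs were never detected, and their SR levels lay between 1179 and 7056 CPM, each above the non-targeting median of 806 CPM. The 2 higher ones were Cd247+Cd3e no. 1, described above, and Cd247+Cd3e no. 6. Cd247+Cd3e no. 6 had 0, 0 and 0.0440 CPM in TIL, against 65.0, 36.7 and 40.9 CPM in SR, and its call (2.86 ± 0.42, SE; limma adjusted p = 0.0269) stands beside a change of -5.54 against SR. It was nearly absent from TIL and ranked 685 of 689 in starting abundance, so it could fall no further than that low level allows. Its call is therefore not a gain in TIL. Leaving out replicate 1 or replicate 2 left 0 of the 42 lower and 0 higher. Without replicate 3 there were 13 lower and 7 higher, where 219 and 66 of the 689 were.

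The number and kind of disrupted genes were compared within replicates, as differences between combinations that differ by 1 gene. These are descriptions without a test. Adding Lat to Cd3e changed the value by 0.96 ± 0.15 (SD, n = 3), above 0 in 3 of 3 replicates. Adding Lat to Cd247 changed it by -1.50 ± 1.32, with -2.55, -1.92 and -0.023 in replicates 1, 2 and 3, the last close to 0. Adding Cd3e to Cd247+Lat gave the largest of the 9 differences, 3.66 ± 1.55, also above 0 in 3 of 3. These differences depended on the settings. Cd3e+Lat and Cd3e stood at 1.09 and 0.49 with region 1 alone, and at 0.71 and 0.51 on the authors' deposited log2 ratios. With region 2 alone their order was reversed (0.19 and 0.52), and with medians of constructs they were nearly equal (-0.43 and -0.42). With medians, Cd247 stood at 0.52, Cd247+Lat at -0.016 and Cd247+Cd3e+Lat at 1.38, so the 2 other differences were smaller than with means. Constructs with 1, 2 and 3 targeted genes were detected in 7 of 54, 4 of 54 and 6 of 18 cases, so detection did not follow the number of genes in order.

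Zap70, the kinase that acts between the CD3 chains and LAT, gave the nearest comparison. The joint disruption with Zap70 added, Cd247+Cd3e+Lat+Zap70, lay at -1.03, -0.59 and -1.82 relative to the non-targeting constructs in replicates 1, 2 and 3, against 1.15, 3.26 and 3.79 for Cd247+Cd3e+Lat. The difference was -3.88 ± 1.72 (SD, n = 3) and below 0 in 3 of 3 replicates, and it was not tested. It starts from the combination already known to be the highest of the 7, which favours a fall. Without Cd247+Cd3e+Lat no. 5 that combination stood at 1.32 over the replicates. In the other 6 pairs that differ by Zap70 the sign varied between replicates, with means from -1.20 to 0.66. Over the 8 combinations with Zap70, 0 were called (limma, 1 with an unadjusted p under 0.05), and their median was -0.32, against 0.75 for the 7 without it and 0.52 for all 101.

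By the authors' rule of at least 2-fold up in both regions, 2, 5 and 2 of the 42 constructs (4.76, 11.9 and 4.76%) were up in replicates 1, 2 and 3, where 8.71, 7.55 and 6.10% of the library was. The authors' deposited table gives Cd247+Cd3e+Lat a log2 enrichment of 1.69, 2.48 and 0 in replicates 1, 2 and 3, from 1, 2 and 0 of its 6 constructs. It is the log2 of the combination's share among the constructs up 2-fold over its share of the library, with 1 added to each count, and 0 where no construct was up. In replicate 2 that value ranked 2 of 101 and was shared by 4 combinations. The 1.69 of replicate 1, from 1 construct up, was shared by 31. Lat and Cd3e+Lat each had 0, 1 and 1 construct up, with an enrichment of 0, 1.90 and 2.20 in the authors' deposited table. Those values were shared by 39 combinations in replicate 2 and 29 in replicate 3. Cd247 had 1 construct up in replicate 1 (1.69) and Cd3e had 1 in replicate 2 (1.90). Cd247+Cd3e and Cd247+Lat had 0 in each replicate, so Cd247+Cd3e no. 1 did not meet the rule although its averaged CPM exceeded SR by over 2-fold in replicates 1 and 2.

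Detection was also set against features that played no part in choosing the constructs. The 12 constructs detected at least once started at a median of 1948 CPM, against 839 CPM for the 30 never detected. Among the constructs in the upper 40% of the library by starting abundance 14 of 54 cases were detected, and among the others 3 of 72, of which 2 came from Cd247+Cd3e+Lat no. 5. Over the library the counts were 164 of 828 and 72 of 1239. The median GC content of the targeting spacers was 60.8% in detected and 60.0% in undetected constructs, and no spacer held a run of more than 3 T.

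Detection was also counted, within the 42 constructs alone, over those that carry each spacer. The Cd3e spacer gtgacccgaggaaccggtgc was detected in 4 of 12 cases, from 2 of its 4 constructs. The Lat spacer ttgggggatactcacgggat was detected in 4 of 9 cases, from 2 of its 3 constructs. The Cd3e spacer tatccggttacctcatagtc gave 0 of 12 cases over 4 constructs, although its construct Cd3e+Lat no. 1 was high in region 1. The 3 overlapping Cd247 spacers printed above gave 4 of 33 cases and the 3 overlapping Lat spacers 2 of 27, and those 2 came from the Lat spacer of Cd3e+Lat no. 2 and no. 3 alone. These counts share constructs, since a construct with several targets adds to each of its spacers. The same spacers also occur in constructs that target Zap70, which are not in these counts. There the first Cd3e spacer was detected in 1 of 9 cases and the second in 0 of 9. The first Lat spacer was detected there in 0 of 6 cases, and the Lat spacer of Cd3e+Lat no. 2 and no. 3 in 3 of 9.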

How the data were processed

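The libraries are amplicons of the guide cassette in the genomic DNA of TIL and SR cells. The submitters' processing notes name Bowtie2; its version, its role and the genome build are unknown here. The deposited tables hold, per construct and region, a score: whole numbers that, judging from the steps between low values, are read numbers scaled by an unstated factor per library, then rounded. They also hold the authors' log2 ratio of TIL over SR and counts of other kinds, such as the authors' number of constructs up 2-fold. SR columns carry no replicate number and take that of the TIL library in the same table.

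Because the values are not counts, no count test was used. Scaled reads were expressed per 1000000 of their library's total (CPM) and averaged over the 2 regions. Changes are on the log2(CPM + 1) scale, which understates those of scarce constructs, and were tested two-sided with limma 3.58.1 in R 4.3.3 on 3 TIL and 3 SR replicates, with no low-value filter. P-values were Benjamini-Hochberg adjusted over all 689 constructs or 101 combinations, and calls were made under 0.05. A second fit subtracted each sample's mean over the non-targeting constructs, and a combination is the mean of its constructs. On simulated data with less spread than the TIL libraries show, this second fit recovered the changes put in, whereas the fit against SR also called constructs that had not been changed, since shares of a library sum to a constant. Most simulated constructs were left unchanged, whereas most constructs were nearly absent from the TIL libraries. The simulation therefore does not show how the fits behave on such libraries. The library lists 690 constructs, and 1 was not analysed here.

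Constructs named are those detected in at least 1 TIL replicate, the 3 with the lowest and the 3 with the highest change, and any called higher; Cd3e+Lat no. 1 is named besides, chosen after its values were seen. The members, lists and thresholds were chosen with earlier results of these data known. The main fits did not treat same-numbered samples as pairs. Changes and ratios given by replicate do set each TIL replicate beside the SR replicate of the same number, as the deposited tables do. Whether the 2 share an origin is unknown here. Alternatives changed the pseudocount, region, replicates, centring, summary and source of the ratios.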

Additional observations from a re-analysis of the deposited data

How the results depend on the processing

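The 29 falls against SR depended little on the settings tried: 29 to 33 were called under each alternative that kept all 42 constructs, and 22 of 34 when the 20% of the library scarcest in SR was left out. The number of rises stayed at 0 except when 1 replicate was left out (0 to 4). Calls relative to the non-targeting constructs (9 lower, 2 higher) were fragile. Lower calls numbered 0 with the scarcest 20% left out, with TIL 1 and TIL 2 averaged, with the replicate number as a block and on the authors' deposited log2 ratios, and 0 to 13 with 1 replicate left out; over the library they numbered 0 in the same 4 settings and 0 to 219 with 1 replicate left out. Higher calls numbered 4 with a pseudocount of 10 CPM (56 over the library), 1 with the scarcest 20% left out (12 of 552), 5 with region 1 alone (42), 0 with region 2 alone (16), 1 with TIL 1 and TIL 2 averaged (10), 0 with the replicate block (0), 0 on the authors' deposited log2 ratios (0), and 0 to 7 with 1 replicate left out (0 to 66). Whether same-numbered samples belong together is unknown here. Their deviations correlated at 0.075, -0.082 and 0.086 over 689 constructs, which cannot settle it, since most constructs were nearly absent from TIL. The block left the 29 falls as they were.

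Of the 7 combinations, 4 were called lower when medians of constructs replaced means (37 of 101 in the library): Cd247+Cd3e at -0.75, Cd3e at -0.42, Cd3e+Lat at -0.43 and Lat at -1.01, where the means lay above 0. On the authors' deposited log2 ratios 1 was called higher (6 of 101), Cd247+Cd3e+Lat at 2.97; over the alternatives with a test its limma adjusted p ran from 0.0261 to 0.66. Cd247 stood at -0.031 with region 1 alone and at -0.044 centred on all constructs, and Cd3e at -0.18 centred on all constructs. Leaving out 1 replicate gave values from 0.039 to 1.59 for Cd247, from -0.32 to 1.07 for Cd3e and from -0.21 to 1.48 for Lat. With 1 construct left out, an alternative added after seeing the data, the lowest value was -0.54 for Cd247, -0.82 for Cd247+Cd3e, 1.32 for Cd247+Cd3e+Lat, -0.59 for Cd3e and -0.12 for Lat.

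Changes of single constructs against SR turned sign when 1 replicate was left out. They ran from -4.49 to 1.98 for Cd247 no. 2 and from -5.47 to 1.04 for Lat no. 1 (highest without replicate 3), and from -4.27 to 2.58 for Cd247+Cd3e+Lat no. 4, from -5.57 to 1.38 for Cd3e no. 1 and from -6.36 to 0.092 for Cd3e+Lat no. 2 (highest without replicate 1). For Cd247+Cd3e+Lat no. 5 they were -1.003 without replicate 1, -0.86 without replicate 2 and 6.12 without replicate 3, and -0.96 with TIL 1 and TIL 2 averaged. Cd247+Cd3e no. 1 stood at -5.09 with region 2 alone and -2.14 on the authors' deposited log2 ratios. Of 174 such settings in all, 155 kept both direction and side of the threshold. Counting detection in either region gave 17.5% of cases, where the library had 14.6%. The cause of these changes was not tested. A count test with DESeq2 and a filter on low counts were not run, because the values are not counts. Precision is limited by the 3 replicates, and the number of cells behind each construct is unknown here.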

Other observations

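Detection in the 42 constructs was also counted by the place of a guide in the cassette. Cd247 guides were in detected constructs in 6 of 48 cases in place 1, 0 of 18 in place 2 and 3 of 6 in place 3. Cd3e guides were in detected constructs in 2 of 33 cases in place 1, 9 of 33 in place 2 and 1 of 6 in place 3. For Lat guides the counts were 9 of 45 in place 1, 1 of 21 in place 2 and 2 of 6 in place 3. Constructs share these cases, place 3 rests on 2 constructs per gene, and the counts were not tested. Place also goes with the combination. Guides in place 3 occurred in Cd247+Cd3e+Lat only, and the targeting guides of single-gene constructs all lay in place 1.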
